A study of Mus musculus with 4 samples.

Results

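Amino acid transporter genes were followed in beta, alpha, delta and other cells of mouse pancreatic islets with and without Sel1L. The members were all gene symbols of the solute carrier families Slc1, Slc3, Slc6, Slc7, Slc36, Slc38 and Slc43, which gave 52 of the 19074 genes listed in the files. Of these, 3 are rows named for the strand opposite a transporter gene (Slc6a19os, Slc36a3os and Slc7a6os), Slc6a4 is the serotonin transporter gene, and Slc43a3 encodes a carrier known for nucleobases. Islets of C57BL/6 mice were profiled cell by cell with 10x Genomics 3′ chemistry, which counts captured RNA molecules by their unique molecular identifiers (UMIs). WT stands for 2 libraries of Sel1Lf/f mice, which carry floxed Sel1L alleles and are labelled wild type, and KO for 2 libraries labelled Sel1L knockout, which the series text calls Sel1LIns1, in which the Ins1-driven Cre recombinase deletes Sel1L in beta cells. SEL1L is the adaptor of the HRD1 ubiquitin ligase in endoplasmic reticulum associated degradation. No group carried Cre alone, and what Cre does by itself cannot be told apart from the loss of Sel1L. Mice were 7 weeks old by the sample labels and 5 weeks old by the series text. Islets of all libraries recovered overnight in culture medium and were dissociated with trypsin. The labels do not say that the replicates are separate animals, so p-values measure only the spread between these libraries, which may be technical.

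Amino acids cross the plasma membrane through carriers that differ in what they move and in what drives them. Slc38 carriers and several Slc6 and Slc1 carriers take up amino acids together with sodium. The light chains of the Slc7 family pair with a heavy chain of the Slc3 family and exchange one amino acid for another. Cationic carriers of the Slc7 family take up arginine and lysine, and some Slc36 carriers move small amino acids with protons, in part out of lysosomes. In islets amino acids feed hormone synthesis, stimulate insulin and glucagon release, and set alpha cell numbers, for which alpha cells use the glutamine carrier Slc38a5.

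The WT libraries held 5951 and 5841 cells with 215467602 and 228515309 UMIs, and the KO libraries held 4337 and 2483 cells with 160208775 and 99156230 UMIs. Pairs of libraries shared 1 to 9 cell barcodes. A cell was a beta cell where Ins1 and Ins2 made up at least 10% of its UMIs, an alpha cell with Gcg at 3% or more and insulin under 5%, and a delta cell with Sst at 3% or more and insulin under 5%; all remaining cells were called other. This gave 3506, 3459, 2372 and 1361 beta cells, 1117, 943, 756 and 330 alpha cells, 460, 533, 305 and 230 delta cells and 585, 633, 754 and 513 other cells in WT 1, WT 2, KO 1 and KO 2. Markers other than the hormone that set a class summed highest in the class of their name: in WT the 4 alpha markers reached 20112 to 22959 CPM in alpha cells and 716 to 762 CPM in beta cells, and the 3 delta markers 12884 to 14177 CPM in delta cells and 76.4 to 164 CPM in beta cells. The 6 beta markers, which include Iapp, summed to 163392 to 176446 CPM in WT beta cells and to as much as 64779 CPM in delta cells. Insulin took 68.3% and 68.9% of the UMIs of the median WT beta cell and 40.1% and 43.9% in KO. The share of beta cells with Gcg, Sst or Ppy at 3% of UMIs or more was 1.14% and 0.896% in WT and 9.74% and 6.47% in KO. Mitochondrial transcripts made up 1.73% and 1.69% of the UMIs of the median WT beta cell and 3.64% and 3.57% in KO. Their share was higher in KO in every class. It was 2.48% and 2.47% in WT and 3.71% and 3.75% in KO alpha cells, and 2.67% and 2.58% against 3.73% and 3.74% in delta cells. In other cells it was 2.63% and 2.41% against 3.58% and 3.56%. The 8 macrophage markers, none at 0, summed to 64.0 to 77.4 CPM in WT and 37.8 to 41.1 CPM in KO beta cells. The part of these differences in the results of any class was not tested. With only cells under 5% mitochondrial UMIs and at least 1000 genes, 15 members were called higher and 6 lower in beta cells, against 16 and 6 with all cells. Sel1l itself (ENSMUSG00000020964, chromosome 12, 91806043 to 91849157) was read at 105 and 103 CPM in WT and 78.2 and 82.6 CPM in KO beta cells, which does not check the deletion, since a 3′ assay reads mostly the end of the transcript.

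Levels are given as CPM, the UMIs of a gene per 1000000 UMIs of its class, leaving out the 6 hormone genes Ins1, Ins2, Gcg, Sst, Ppy and Pyy. UMIs of a 3′ assay do not grow with transcript length, so levels of different genes can be set side by side, apart from differences in capture. Changes are log2 ratios of KO over WT from edgeR's quasi-likelihood test on UMIs summed per class and library, and a gene is called at a Benjamini-Hochberg adjusted p under 0.05 over all genes tested in the class. These log2 changes are relative to the median gene and lie slightly below the ratio of the printed CPM in beta cells. The 52 genes together took 1652 and 1586 CPM in WT and 1755 and 1794 CPM in KO beta cells, but 24.9 and 25.6 UMIs per WT and 45.4 and 51.4 UMIs per KO beta cell. UMIs per cell were higher in KO in the other classes too. They went from 19.1 and 19.4 in WT to 34.2 and 35.7 in KO alpha cells and from 10.1 and 11.2 to 17.4 and 18.2 in delta cells. In other cells they went from 13.8 and 13.0 to 24.1 and 26.5. The cause of this difference between the libraries was not tested.

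In KO beta cells the transporter genes moved in both directions. Of the 38 members tested, 16 rose (with them Slc7a6os, which encodes no transporter), 6 fell and 16 were not called (57.9% called), where 41.8% of all 14830 genes tested were called, and the median log2 change of the members was 0.26 against 0.00 for all genes. Among the rises, Slc1a3, Slc6a15, Slc38a11 and Slc38a8 passed edgeR's filter on low counts only through the KO libraries. They would not have been tested without their KO counts, which favours a rise in these counts and in the median. Among called members with a group mean of 5 CPM or more in WT or KO, Slc38a5, Slc7a3 and Slc38a10 had the largest rises; Slc38a5 and Slc7a3 reach that limit only in KO, and Slc38a4, a main neutral amino acid carrier gene of WT beta cells, fell 2.01-fold. The 16 rises kept their sign with library size only (sums scaled by all their UMIs, insulin included, with no TMM factor) and with sums scaled by cell number, settings in which the median gene itself stood at 0.92 and 0.93, whereas 5 of the 6 falls turned into rises and Slc38a4 stood at -0.10 and -0.08, where it was not called (adjusted p = 0.244 and 0.551), so the 6 falls are falls relative to other genes. In both settings edgeR called 34 members, all higher, where 12916 and 12929 of all 14830 genes were called, against 6197 with TMM scaling. Without KO replicate 1, 10 members were called higher and 3 lower.

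**Figure D1:**
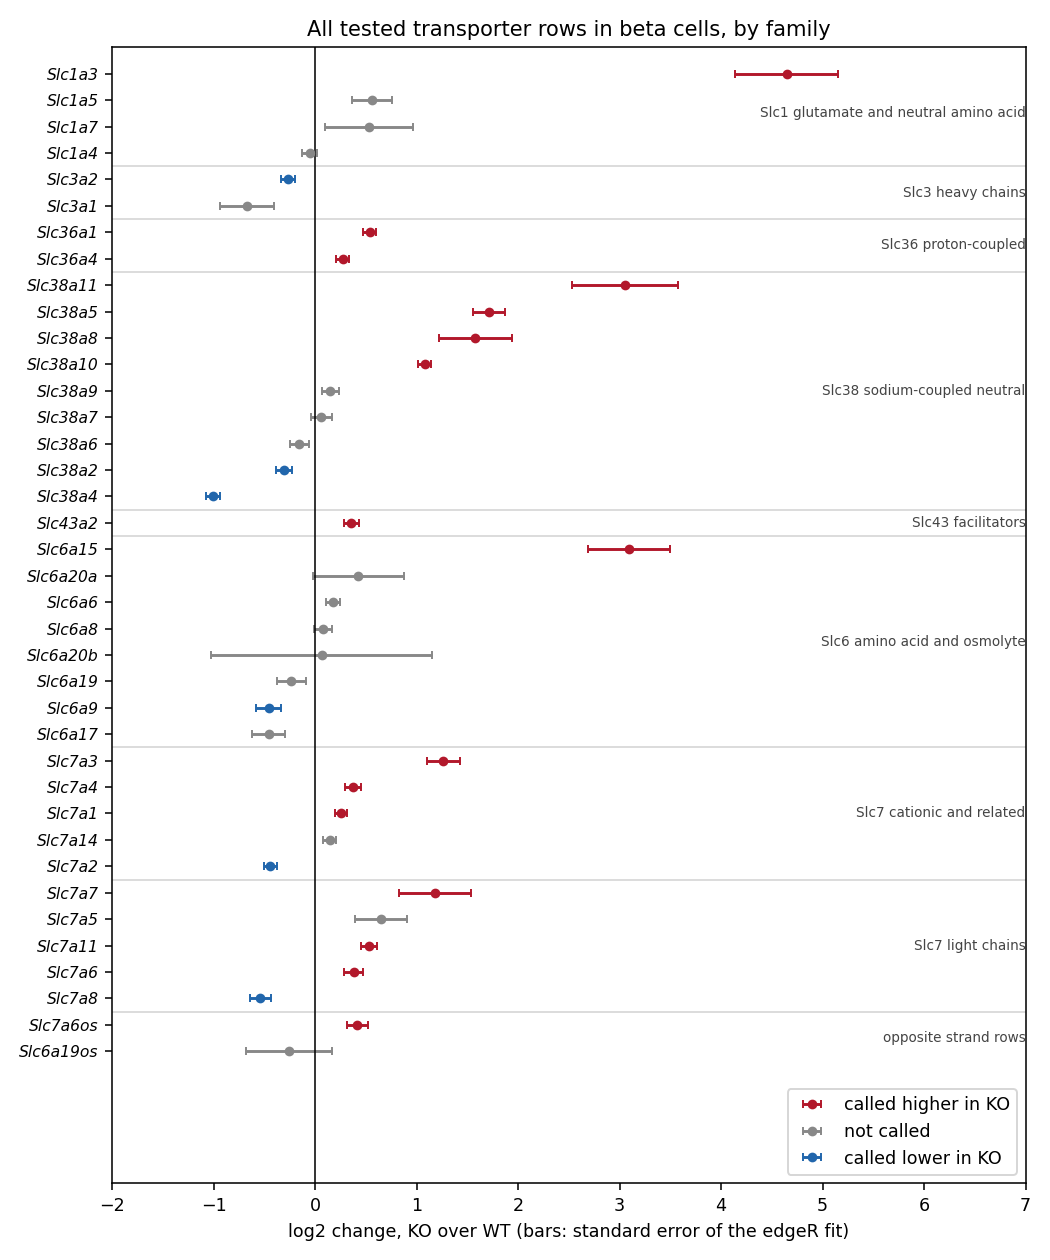
Log2 change of KO over WT in beta cells (horizontal axis, with the standard error of the edgeR fit) for the 38 tested members (vertical axis), grouped by family. The 16 called rises lie to the right of 0 and the 6 called falls to the left, and with library size only or scaling by cell number none of the 6 is called lower, 5 turn sign and Slc38a4 lies at -0.10 and -0.08.

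Genes of the Slc38 family of sodium-coupled neutral amino acid transporters moved in both directions. Of its 11 genes 9 were tested in beta cells, of which 4 rose, 2 fell and 3 were not called, where 41.8% of all genes tested were called. Slc38a10 (chromosome 11, 120103960 to 120151346), an intracellular member of the family, was read at 84.7 and 80.1 CPM in WT and 193 and 186 CPM in KO beta cells. Both KO libraries lay above both WT libraries by far more than the libraries of a group differed. The log2 change was 1.08 (SE 0.06, adjusted p = 1.1e-04), a 2.11-fold rise. Slc38a4 (chromosome 15, 96994820 to 97055956), which takes up neutral and some cationic amino acids, went the other way. It stood at 160 and 161 CPM in WT and at 82.9 and 90.6 CPM in KO beta cells, with no overlap between the groups. It fell by 1.01 on the log2 scale (SE 0.07, adjusted p = 1.8e-04), and in UMIs per cell its levels were 2.41 and 2.60 in WT and 2.15 and 2.60 in KO, which do overlap.

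Slc38a5 (chromosome X, 8271133 to 8280179), the glutamine carrier known from alpha cells, was low in beta cells, at 2.27 and 2.11 CPM in WT and 8.68 and 6.90 CPM in KO. The KO values lay above the WT values without overlap, with a log2 change of 1.72 (SE 0.16, adjusted p = 4.5e-04). Slc38a5 UMIs were counted in 198 of 6965 WT beta cells and 568 of 3733 KO beta cells, and cells that also held another hormone at 3% or more carried 79 of the 802 KO UMIs. Without those cells the log2 change was 1.74. Slc38a2, the amino acid regulated carrier known as SNAT2, was read at 181 and 155 CPM in WT and 143 and 153 CPM in KO beta cells. The lower WT value and the higher KO value lay close together, and the fall of 0.30 (SE 0.08, adjusted p = 0.0209) was not called without KO replicate 1 (adjusted p = 0.165) or KO replicate 2 (adjusted p = 0.0717) and turned to 0.61 with library size only.

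Slc38a11 and Slc38a8 rose from near 0. Slc38a11 had 5 UMIs in all WT beta cells and 24 and 19 in the KO libraries, with a log2 change of 3.05 (SE 0.52, adjusted p = 0.00423). Slc38a8 had 10 and 18 UMIs in WT and 50 and 34 in KO, with a log2 change of 1.58 (SE 0.36, adjusted p = 0.0130). At most 81 KO beta cells carried a UMI of either gene, so these are changes of rare transcripts. Both genes passed edgeR's filter on low counts only through the KO libraries, so their adjusted p-values are no separate support for a rise. The lysosomal sensor and arginine-gated carrier gene Slc38a9, the lysosomal glutamine carrier gene Slc38a7 and Slc38a6 were not called, with log2 changes of 0.15, 0.06 and -0.16, of which that of Slc38a6 turned to 0.76 with library size only.

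The cationic amino acid carriers of the Slc7 family, which supply arginine and lysine, did not move alike. Slc7a3 (chromosome X, 101079210 to 101086020), encoding the carrier CAT3, was read at 3.95 and 5.25 CPM in WT and 11.4 and 12.8 CPM in KO beta cells. The groups stood well apart, and the log2 change was 1.26 (SE 0.16, adjusted p = 0.00144). Of 1198 Slc7a3 UMIs in KO beta cells, 92 came from cells with another hormone, and the log2 change without those cells was 1.27. Slc7a1, the gene of the widespread carrier CAT1, was read at 46.9 and 42.4 CPM in WT and 57.6 and 58.2 CPM in KO. This rise of 0.26 (SE 0.06, adjusted p = 0.0140) was larger than the spread of either group, but was not called without KO replicate 1 (adjusted p = 0.0697) or KO replicate 2 (adjusted p = 0.0722).

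Slc7a2, encoding the carrier CAT2, moved opposite to Slc7a1 and Slc7a3. It went from 68.8 and 61.8 CPM to 52.9 and 51.6 CPM. The groups did not overlap and the fall was 0.44 (log2, SE 0.06, adjusted p = 0.00200), which turned to 0.47 with library size only and 0.48 with sums scaled by cell number. Slc7a4, a family member whose substrate is not settled, rose from 17.9 and 18.9 CPM to 26.7 and 25.1 CPM (log2 change 0.37, SE 0.08, adjusted p = 0.00949), which just missed the threshold without KO replicate 1 (log2 change 0.34). Slc7a14, a lysosomal family member, was among the highest of all members at 183 and 163 CPM in WT and 206 and 210 CPM in KO, and its log2 change of 0.14 was not called (adjusted p = 0.132).

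**Figure D2:**
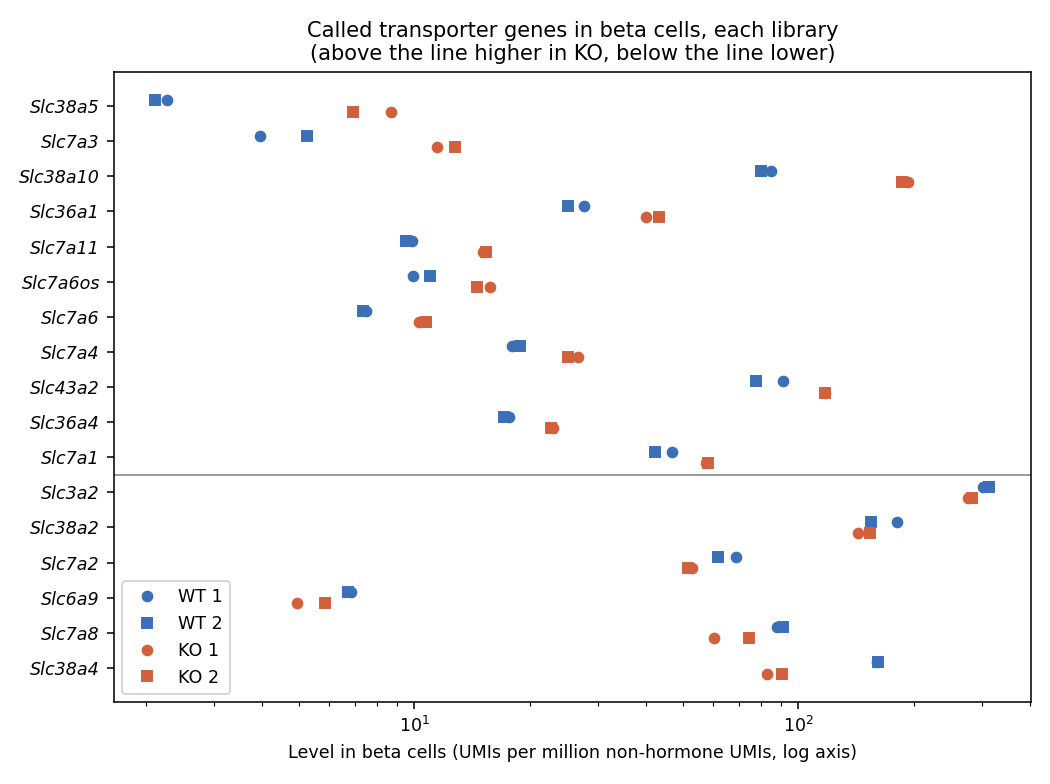
Level of the 17 called members with at least 5 CPM in beta cells (horizontal log axis, CPM of non-hormone UMIs), each point 1 library, WT blue and KO orange. The genes were chosen by their call on these same libraries, and WT and KO points do not overlap for any of them. The groups also lay apart for 32 of all 38 members tested, and the share over all genes was not counted. Slc38a10, Slc38a5 and Slc7a3 show the widest gaps upward and Slc38a4 downward. Of the genes below the line none is called lower with library size only or scaling by cell number, where Slc38a4 lies at -0.10 and -0.08 and the other 5 turn sign.

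Of the heavy chains that anchor exchangers, Slc3a2 (chromosome 19, 8706882 to 8723369), whose protein CD98hc holds most light chains at the membrane, was the highest member in WT beta cells. It was read at 303 and 314 CPM in WT and 276 and 283 CPM in KO. The groups did not overlap, but the fall was small at 0.27 (log2, SE 0.07, adjusted p = 0.0231), was not called without KO replicate 1 (adjusted p = 0.166) or KO replicate 2 (adjusted p = 0.138), and turned to 0.65 with library size only. Of the 6 light chain genes 5 were tested, of which 3 rose, 1 fell and 1 was not called, where 41.8% of all genes tested were called. The other heavy chain gene, Slc3a1, was not called (log2 change -0.67, adjusted p = 0.0859; 0.24 with library size only).

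Slc7a11 (chromosome 3, 49892526 to 50443614), which encodes the cystine and glutamate exchanger xCT, was read at 9.85 and 9.49 CPM in WT and 15.1 and 15.4 CPM in KO beta cells. Replicates agreed closely and the groups stood apart, with a log2 change of 0.53 (SE 0.08, adjusted p = 0.00255). Slc7a6, an arginine and glutamine exchanger gene, rose from 7.49 and 7.34 CPM to 10.3 and 10.7 CPM (log2 change 0.38, SE 0.09, adjusted p = 0.0163), but was not called without KO replicate 1 (adjusted p = 0.0691) or KO replicate 2 (adjusted p = 0.0994). Slc7a6os, on the opposite strand beside it and not itself a transporter gene, rose by 0.42 (SE 0.10, adjusted p = 0.0170; adjusted p = 0.0852 without KO replicate 1). The 2 genes do not overlap in the annotation.

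Slc7a8, encoding the neutral amino acid exchanger LAT2, fell. It was read at 88.0 and 91.2 CPM in WT and 60.3 and 74.4 CPM in KO beta cells, so the KO libraries differed more from each other than the WT libraries did, without reaching them. The fall was 0.54 (log2, SE 0.10, adjusted p = 0.00654) and turned to 0.37 with library size only. Slc7a5, which encodes the large neutral amino acid exchanger LAT1 for leucine, stood at 15.8 and 28.6 CPM in WT and 41.5 and 34.6 CPM in KO. Both KO values lay above both WT values, but the WT libraries differed by so much that the change of 0.65 (SE 0.26, adjusted p = 0.0873) was not called. Without WT replicate 2 it was 1.18 (adjusted p = 9.7e-04) and without WT replicate 1 it was 0.26. Slc7a7, a light chain gene rare in beta cells, had 18 and 16 UMIs in WT and 57 and 23 in KO (log2 change 1.18, SE 0.35, adjusted p = 0.0352), and was not called without WT replicate 1, WT replicate 2 or KO replicate 1 (adjusted p = 0.0742, 0.112 and 0.279).

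Promoter windows of 250 bases before to 50 after the start were searched in RefSeq for the letters of 4 response elements, on both strands, because several members are known targets of the amino acid and ER stress responses. Windows were found for 40 of the 52 members, 58 windows in all, and for 30 of the 38 tested in beta cells. The letters TGATGNAA, of the C/EBP-ATF response element that ATF4 binds, lay in 4 of the 58 windows and in 3.97% of all 32851 windows. They were found in Slc7a11 and Slc7a7, which rose in KO beta cells, and in Slc1a4, which was not called. These windows are shown because they hold every match of this element. The window of a second Slc7a7 start overlaps the one shown and holds the same TGATGCAA site again. The windows shown are from chr3:50443564-50443863, chr11:20332664-20332963 and chr14:54417895-54418194 of GRCm38.p6, minus strand in each, written 5′ to 3′ with the matches in capitals.
Slc7a11: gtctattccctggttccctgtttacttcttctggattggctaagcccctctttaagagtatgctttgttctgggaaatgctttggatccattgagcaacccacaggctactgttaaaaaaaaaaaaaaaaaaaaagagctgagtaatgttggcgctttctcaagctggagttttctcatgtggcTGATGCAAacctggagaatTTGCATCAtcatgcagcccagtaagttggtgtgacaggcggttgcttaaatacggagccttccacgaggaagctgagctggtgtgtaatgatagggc
Slc1a4: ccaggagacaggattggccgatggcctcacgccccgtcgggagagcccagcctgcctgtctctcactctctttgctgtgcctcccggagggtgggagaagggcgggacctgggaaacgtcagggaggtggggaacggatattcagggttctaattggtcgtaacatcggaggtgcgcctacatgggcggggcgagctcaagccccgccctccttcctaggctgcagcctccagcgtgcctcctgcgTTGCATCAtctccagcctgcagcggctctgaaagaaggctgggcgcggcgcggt
Slc7a7: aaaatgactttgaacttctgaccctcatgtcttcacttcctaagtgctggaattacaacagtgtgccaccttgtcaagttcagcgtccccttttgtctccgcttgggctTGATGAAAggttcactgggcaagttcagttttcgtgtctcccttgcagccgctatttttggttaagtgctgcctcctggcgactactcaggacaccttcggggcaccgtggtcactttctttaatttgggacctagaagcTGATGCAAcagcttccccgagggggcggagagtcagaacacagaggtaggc
In the Slc7a11 window the matches began at positions -66 and -47 from the start, on opposite strands, in Slc1a4 at position -4, and in Slc7a7 at positions -141 and -1. The unfolded protein response element, TGACGTGG, lay in 0.676% of all windows and among members only in the windows of Slc7a6, which rose. The antioxidant response element, TGACNNNGC, lay in 12.4% of all windows and in 10 of the 58 member windows, those of 8 genes, and its match in Slc7a6 covers the same bases as TGACGTGG. These genes include Slc7a1 and Slc36a1, which rose, and Slc6a9 and Slc38a2, which fell relative to the median gene. The ER stress response element lay in 0.119% of all windows and in no member window. A match is a description of letters in a window and not a bound site.

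Both tested genes of the Slc36 family rose. Slc36a1 (chromosome 11, 55204350 to 55236330), encoding the lysosomal carrier PAT1, was read at 27.7 and 25.2 CPM in WT and 40.2 and 43.3 CPM in KO beta cells. The groups were clearly apart (log2 change 0.54, SE 0.07, adjusted p = 0.00126). Slc36a4 was read at 17.6 and 17.1 CPM in WT and 22.9 and 22.6 CPM in KO (log2 change 0.27, SE 0.07, adjusted p = 0.0168), a small rise that was not called without KO replicate 1 (adjusted p = 0.0940) or KO replicate 2 (adjusted p = 0.0615). Of the Slc43 facilitators, Slc43a2, which encodes the sodium-independent carrier LAT4 for large neutral amino acids, rose from 91.1 and 77.3 CPM to 117 CPM in both KO libraries (log2 change 0.36, SE 0.07, adjusted p = 0.00895). Slc43a1 had 5 UMIs in WT and 4 in KO beta cells and was not tested.

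Of the 8 tested amino acid and osmolyte carrier genes of the Slc6 family 1 rose, 1 fell and 6 were not called. Of the 4 tested Slc1 genes 1 rose and 3 were not called, where 41.8% of all genes tested were called. Slc6a6, the taurine transporter gene, was the second highest member at 232 and 210 CPM in WT and 267 and 275 CPM in KO beta cells, and its change of 0.18 was not called (adjusted p = 0.0733; adjusted p = 0.0377 without WT replicate 1). Slc6a8, the creatine transporter gene, changed by 0.08 (adjusted p = 0.515). Slc6a9, encoding the glycine transporter GLYT1, fell from 6.82 and 6.72 CPM to 4.94 and 5.85 CPM (log2 change -0.46, SE 0.12, adjusted p = 0.0241), but was not called without KO replicate 1 (log2 change -0.32, adjusted p = 0.195) and turned to 0.46 with library size only. Slc6a17, a vesicular neutral amino acid carrier gene, stood at 15.7 and 21.5 CPM in WT and 15.3 and 14.2 CPM in KO and was not called (log2 change -0.46, adjusted p = 0.0576; 0.46 with library size only).

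Slc6a15, which encodes a carrier of branched chain amino acids and proline, had 10 UMIs in WT beta cells and 47 and 39 in the KO libraries (log2 change 3.10, SE 0.40, adjusted p = 0.00154). Slc1a3, the glutamate transporter gene known from glia, had 4 UMIs in all 6965 WT beta cells and 103 in 3733 KO beta cells, where they came from 76 cells (log2 change 4.65, SE 0.51, adjusted p = 8.4e-04). KO beta cells with another hormone carried 7 of the 103. Both genes stayed far below 5 CPM in KO, and the fitted changes of Slc1a3, Slc6a15 and Slc38a11 depend on edgeR's prior count, since WT held so few UMIs. Slc1a3 and Slc6a15 also passed edgeR's filter on low counts only through the KO libraries, so their adjusted p-values are no separate support for a rise. The neutral amino acid exchangers of the Slc1 family were not called: Slc1a5, encoding ASCT2, changed by 0.56 (adjusted p = 0.0590; adjusted p = 0.0219 without WT replicate 2) and Slc1a4, encoding ASCT1, by -0.05 (adjusted p = 0.575), which turned to 0.86 with library size only. The 14 members not tested in beta cells had at most 40 UMIs each over the 4 libraries.

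Other genes that sense or use amino acids moved mostly down in the same beta cells, relative to the median gene. Of the 96 genes of 5 related lists tested, 57 were called, where 41.8% of all genes were. Of 24 genes of the amino acid response 6 rose and 12 fell, with a median log2 change of -0.28, and of 20 aminoacyl-tRNA synthetase genes, which load amino acids onto tRNA, 2 rose and 12 fell, with a median of -0.25. Psph, an enzyme gene of serine synthesis, went from 169 and 183 CPM to 51.1 and 53.8 CPM, and Stc2, which encodes a secreted stanniocalcin, from 0.208 and 0.376 CPM to 3.68 and 3.54 CPM. Gars, the glycyl-tRNA synthetase gene, fell by 0.61. Of 31 measured genes of amino acid sensing by mTORC1, the kinase complex that amino acids activate at lysosomes, 6 rose and 12 fell, with a median of -0.18; Fnip2 and Flcn, partners in a regulator of its Rag GTPases, fell by 0.83 and 0.75. Of 14 tested mitochondrial amino acid carrier genes 4 rose, none fell and 10 were not called, a smaller share called than over all genes; the 4 include Sfxn2, Sfxn3 and the serine carrier gene Sfxn1 (log2 changes 0.39, 0.36 and 0.22). The lists hold 37 falls and 20 rises in all, and with library size only 87 of their 96 tested genes were higher and 2 lower, so these falls too are relative to other genes. Without KO replicate 2 the lists held 27 falls and 9 rises.

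The list of other amino acid and peptide transporter genes had 7 tested members, of which 2 rose, 1 fell and 4 were not called, near the 41.8% called over all genes. Tmem27, also called collectrin, encodes a membrane protein that escorts Slc6 carriers such as Slc6a19 to the cell surface. Tmem27 was read at 492 and 447 CPM in WT and 834 and 762 CPM in KO (log2 change 0.65, SE 0.08, adjusted p = 0.00133). Slc6a19, encoding that neutral amino acid carrier, was read at 8.60 and 10.2 CPM in WT and 9.38 and 8.01 CPM in KO and was not called (log2 change -0.23, adjusted p = 0.220; 0.69 with library size only). The peptide transporter gene Slc15a2 fell from 2.46 and 1.52 CPM to 0.293 and 0.103 CPM (log2 change -3.32, SE 0.43, adjusted p = 0.00156).

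In alpha cells, fewer members changed. Of 27 tested, 5 rose, 3 fell and 19 were not called (29.6% called), where 14.5% of all 12792 genes were called. Slc6a17 was read at 24.1 and 26.7 CPM in WT and 40.5 and 41.5 CPM in KO alpha cells, a rise of 0.58 (log2, SE 0.09, adjusted p = 0.00837) with the groups well apart. Slc38a10 rose from 70.5 and 77.5 CPM to 105 and 99.3 CPM (log2 change 0.36, SE 0.08, adjusted p = 0.0166), Slc7a14 from 81.0 and 79.7 CPM to 108 CPM in both libraries (0.32, SE 0.07, adjusted p = 0.0169), Slc43a2 from 105 and 101 CPM to 139 and 130 CPM (0.28, SE 0.07, adjusted p = 0.0315) and Slc38a4 from 169 and 187 CPM to 221 and 240 CPM (0.26, SE 0.07, adjusted p = 0.0451). WT and KO values of these genes did not overlap. The call was lost for Slc38a4 without WT replicate 1, KO replicate 1 or KO replicate 2 (adjusted p = 0.210, 0.0776 and 0.186), and for Slc43a2 without WT replicate 2, KO replicate 1 or KO replicate 2 (adjusted p = 0.0921, 0.167 and 0.0643). It was lost for Slc38a10 without WT replicate 1 or KO replicate 1 (adjusted p = 0.0544 and 0.0946), and for Slc7a14 without KO replicate 1 or KO replicate 2 (adjusted p = 0.0795 and 0.0662).

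Of the 3 members called lower in alpha cells Slc1a4 fell most, from 4.96 and 5.06 CPM to 1.50 and 2.37 CPM (log2 change -1.57, SE 0.30, adjusted p = 0.0129; adjusted p = 0.0821 without KO replicate 1). Slc6a9 had a log2 change of -1.80 from few UMIs and was not called (adjusted p = 0.0520). Slc3a2 and Slc38a2 fell by 0.25 and 0.24 (log2, adjusted p = 0.0357 and 0.0411) and turned to 0.52 and 0.53 with sums scaled by cell number; neither was called when any library was left out (adjusted p from 0.0659 to 0.115 and from 0.0627 to 0.177). In the same alpha cells the insulin transcripts Ins1 and Ins2, which mark RNA of beta cells there, changed by -2.36 and -1.72 (log2), and Slc1a4 was 4.08-fold higher in WT beta than alpha cells; the part of beta cell RNA in the Slc1a4 fall was not tested. Calls in alpha cells rested on all 4 libraries: without WT replicate 1, WT replicate 2, KO replicate 1 and KO replicate 2 the number called was 4, 5, 2 and 3, and of the 8 genes only Slc6a17 was called in each case.

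In delta cells 28 members were tested, of which Slc7a14 rose, Slc3a2 fell and 26 were not called (7.14% called, where 8.03% of all 11626 genes were called). Slc7a14 was read at 146 and 158 CPM in WT and 212 and 221 CPM in KO delta cells, with no overlap (log2 change 0.39, SE 0.09, adjusted p = 0.0194). Slc3a2 was read at 143 and 150 CPM in WT and 123 and 117 CPM in KO (log2 change -0.40, SE 0.09, adjusted p = 0.0192), which turned to 0.27 with sums scaled by cell number. Neither was called without WT replicate 2 (adjusted p = 0.0632 and 0.108) or KO replicate 2 (adjusted p = 0.0860 and 0.0766), and Slc7a14 was not without WT replicate 1 (adjusted p = 0.0961). With 230 to 533 delta cells per library, Slc6a8 at 15.9 and 20.4 CPM in WT and 28.4 and 28.7 CPM in KO was not called (adjusted p = 0.0732).

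Whether the genotype effect differed between classes was tested with an interaction term of class and genotype, each library being its own block. Between beta and alpha cells 11 of 35 members differed, 7 with a higher and 4 with a lower effect in beta cells, where 25.9% of all 14509 genes differed (31.4% of members). Between beta and delta cells 8 of 41 differed, 5 higher and 3 lower, where 18.4% of all 14618 genes differed (19.5% of members). These counts include Slc6a15 and Slc38a11 against alpha cells and Slc7a3 against delta cells, which had too few UMIs to be tested within that other class. The beta cell effect on Slc38a4 lay 1.27 log2 units below that in alpha cells (SE 0.07, adjusted p = 1.6e-09) and 1.17 below that in delta cells (SE 0.23, adjusted p = 9.4e-04; adjusted p = 0.0610 without KO replicate 1). Written as beta minus the other class these differences are -1.27 and -1.17. For Slc38a10 the difference was 0.72 against alpha cells (SE 0.08, adjusted p = 4.7e-06) and 1.07 against delta cells (SE 0.09, adjusted p = 6.0e-08). For Slc38a5 it was 1.49 (SE 0.18, adjusted p = 7.9e-06) and 1.96 (SE 0.23, adjusted p = 4.0e-06). With library size only, the difference of the median gene itself stood at 0.68 against alpha and 0.73 against delta cells. With sums scaled by cell number it stood at 0.12 and 0.21. An upward shift could not turn the sign of Slc38a10 or Slc38a5, so these settings did not test it. The Slc38a4 differences stayed negative in both settings. With library size only, that from delta cells was -0.42 and not called (adjusted p = 0.113).

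Slc6a17 and Slc7a8 also had lower effects in beta cells than in either other class, by -1.01 and -0.64 against alpha cells (adjusted p = 1.5e-05 and 7.9e-05) and by -0.90 and -0.79 against delta cells (adjusted p = 0.00516 and 0.00217). Without WT replicate 2 the Slc6a17 difference from delta cells was -0.52 (adjusted p = 0.143), and without KO replicate 1 that of Slc7a8 was -0.58 (adjusted p = 0.0543). With library size only Slc6a17 was not called against either class (-0.31 against alpha cells, adjusted p = 0.0560, and -0.14 against delta cells, adjusted p = 0.588), nor was Slc7a8 against delta cells (-0.04, adjusted p = 0.846). Slc7a2 differed from alpha cells by -0.49 (adjusted p = 7.1e-05), and with library size only the alpha differences of Slc7a2 and Slc7a8 turned to 0.21 and 0.055. Slc1a4 differed by 1.55 from alpha cells (adjusted p = 1.6e-04), where it fell. Slc7a1 and Slc7a4 differed from alpha cells by 0.42 and 0.45 (adjusted p = 0.00818 and 0.0453), and Slc7a4 was not called without WT replicate 1 or KO replicate 1 (adjusted p = 0.275 and 0.318).

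Slc7a5, not called within beta cells, differed from delta cells by 0.95 (SE 0.19, adjusted p = 0.00144), and Slc7a3 differed from delta cells by 1.76 (SE 0.56, adjusted p = 0.0326), a call lost when any library was left out (adjusted p from 0.0800 to 0.107). The rare transcripts Slc38a11 and Slc6a15 differed from alpha cells by 3.27 and 5.09 (SE 0.89 and 1.49), and Slc38a11 from delta cells by 3.92 (SE 0.89). Alpha cells held 18 Slc38a11 and 5 Slc6a15 UMIs in WT and 13 and 1 in KO, so the sizes of these differences are loose. The Slc6a15 difference was not called without WT replicate 1 or KO replicate 1 (adjusted p = 0.116 and 0.137) and was 8.80 without KO replicate 2. The Slc38a11 difference from alpha cells was not called without WT replicate 2 or KO replicate 1 (adjusted p = 0.0629 and 0.0711).

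**Figure D3:**
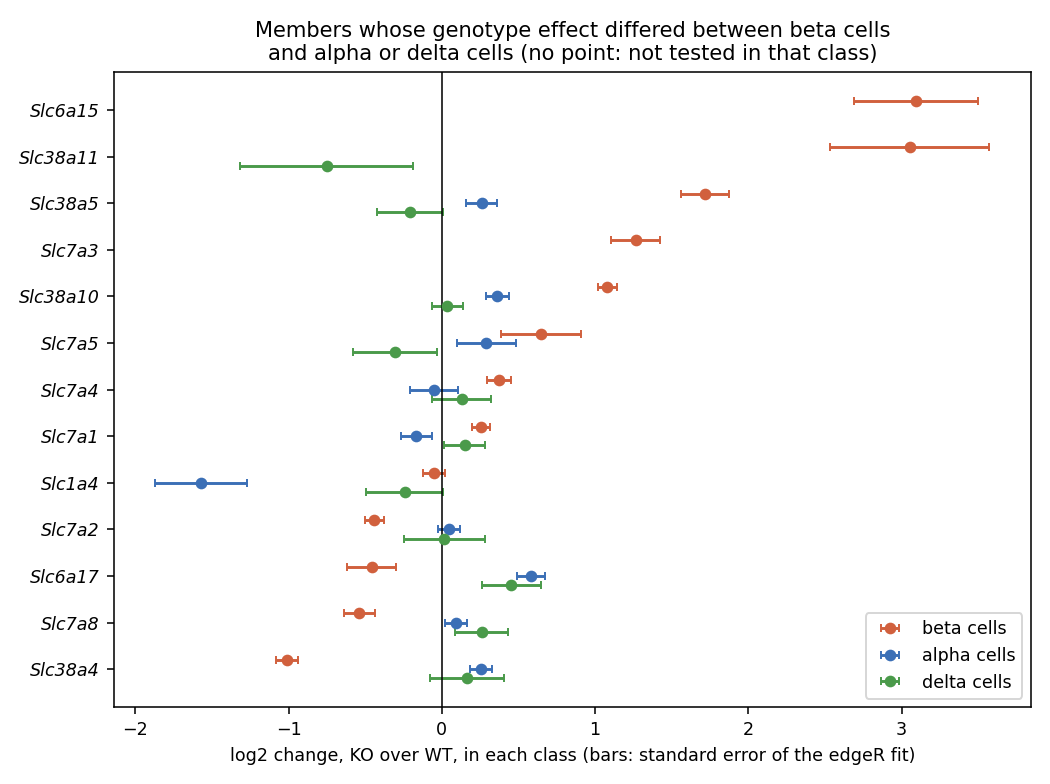
Log2 change of KO over WT (horizontal axis, with the standard error of the edgeR fit) in beta, alpha and delta cells for the 13 members whose effect differed between classes. Slc38a4 lies at -1.01 in beta cells and at 0.26 and 0.16 in alpha and delta cells, and Slc38a10 at 1.08, 0.36 and 0.04; with library size only the differences of Slc7a2 and Slc7a8 from alpha cells turn sign.

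The levels of the members in WT also differed between classes. In WT cells 29 of 35 members differed between beta and alpha cells, 19 higher and 10 lower in beta cells, where 64.4% of all genes differed, and 30 of 41 differed between beta and delta cells, 21 higher and 9 lower, where 54.2% of all genes differed. This split depends on the scaling, since insulin fills most of the UMIs of a beta cell: with library size only it was 8 higher and 18 lower against alpha cells and 6 higher and 26 lower against delta cells, with the median gene at -0.92 and -1.36. The genes named next kept their sign in all 3 scalings unless stated. In beta cells the order in WT was Slc3a2 (309 ± 7.93 CPM, SD, n = 2), Slc6a6 (221 ± 15.5), Slc7a14 (173 ± 14.6), Slc38a2 (168 ± 18.5) and Slc38a4 (160 ± 1.05); the last 3 do not differ beyond their spread.

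Some carriers stood higher in alpha cells. Slc38a5 was read at 88.3 and 91.4 CPM in WT alpha cells and 2.27 and 2.11 CPM in beta cells, a 38.5-fold difference (log2 -5.27, SE 0.13, adjusted p = 2.1e-16), so KO beta cells remained far below alpha cells. The rises in KO beta cells left it at 8.68 and 6.90 CPM. Slc7a2 was read at 271 and 252 CPM in WT alpha cells, 3.78-fold above beta cells, and Slc7a8 at 220 and 206 CPM, 2.24-fold above. Slc7a7, with 3.76 and 2.90 CPM, was 9.90-fold above. The order in WT alpha cells was Slc3a2 (298 ± 9.67 CPM, SD, n = 2), Slc7a2 (262 ± 13.2), Slc7a8 (213 ± 10.2), Slc38a4 (178 ± 13.0) and Slc6a6 (136 ± 1.26).

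Beta cells had more of several low carriers. Slc6a19 was read at 8.60 and 10.2 CPM in WT beta cells and had 4 UMIs in WT alpha cells (log2 difference 5.82, SE 0.32). Slc7a3 and Slc7a11 were 13.9-fold and 12.4-fold higher in beta than alpha cells, Slc6a9 5.95-fold, Slc1a4 4.08-fold, Slc7a5 4.07-fold and Slc36a1 3.27-fold. The median WT alpha cell held insulin at 0.478% and 0.535% of its UMIs, and the part of beta cell RNA in these low alpha values was not tested. Slc7a14 was 2.29-fold higher in beta than alpha cells.

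In delta cells Slc38a4, Slc7a2 and Slc7a8 were low. Slc38a4 was read at 14.6 and 11.2 CPM in WT delta cells, 14.4-fold below beta cells (log2 3.85, SE 0.11), Slc7a2 6.66-fold below at 12.6 and 9.89 CPM, and Slc7a8 6.25-fold below at 15.6 and 17.1 CPM. Slc3a2 and Slc43a2 were 2.40-fold and 2.31-fold below, which turned to slightly above with library size only (log2 -0.12 and -0.18 for beta minus delta). Slc38a1, a glutamine carrier gene close to Slc38a2, was read at 3.22 and 6.78 CPM in WT delta cells and had 10 UMIs in all WT beta cells (log2 -5.52, SE 0.52). Slc38a11 and Slc1a1, a glutamate transporter gene, were higher in delta than beta cells (log2 -6.20 and -4.93 as beta minus delta), from 38 and 19 UMIs in WT delta cells. The order in WT delta cells was Slc6a6 (277 ± 9.62 CPM, SD, n = 2), Slc38a2 (193 ± 18.5), Slc7a14 (152 ± 8.21), Slc3a2 (146 ± 5.32) and Slc38a10 (71.0 ± 2.26), of which Slc7a14 and Slc3a2 do not differ beyond their spread.

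**Figure D4:**
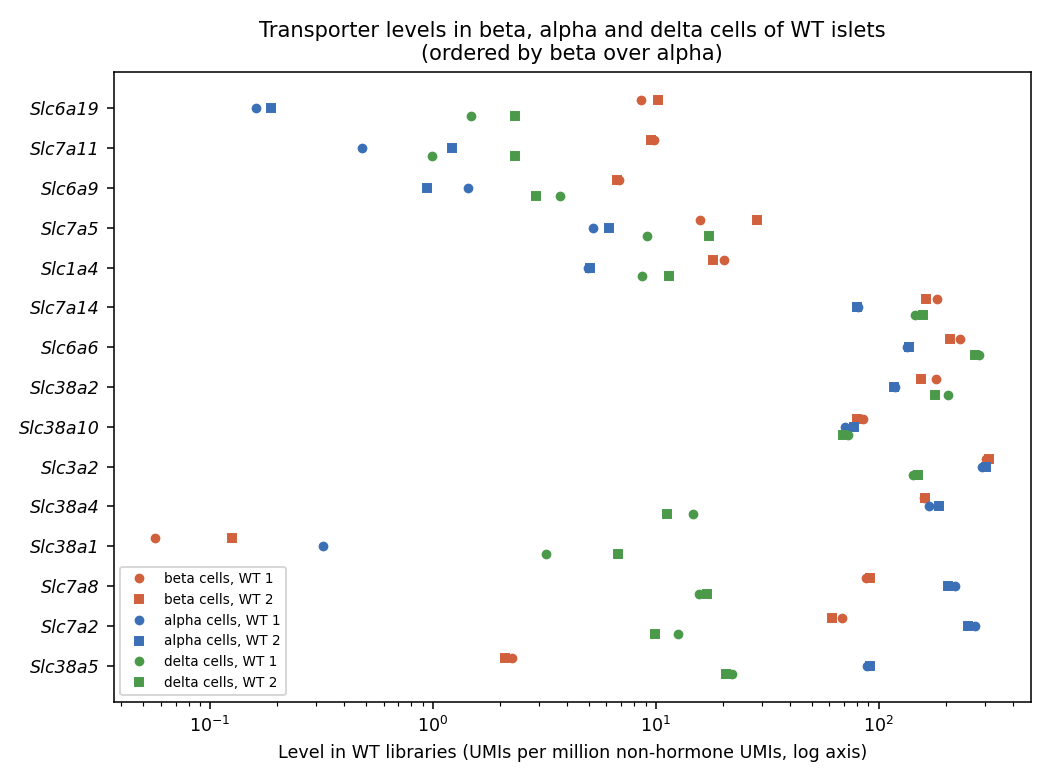
Level in beta, alpha and delta cells of the WT libraries (horizontal log axis, CPM of non-hormone UMIs, each point 1 library) for the highest members and those that differ most between classes. Slc38a5, Slc7a2 and Slc7a8 are highest in alpha cells, Slc6a19 and Slc7a11 in beta cells and Slc38a1 in delta cells. Slc38a1 had no UMI in alpha cells of WT 2 and has no point there. With library size only the beta to delta differences of Slc1a4, Slc3a2, Slc6a9, Slc7a5, Slc7a14 and Slc38a10 turn sign, and so do the beta to alpha differences of Slc3a2, Slc6a6, Slc38a2 and Slc38a10.

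The other cells, of several types, had no member called among 31 tested by edgeR, where 0.693% of all 13281 genes were called; 7 members had an unadjusted p under 0.05, DESeq2 called 1 and limma-voom 0. Slc7a3 (0.760 and 1.03 CPM in WT, 4.73 and 3.43 CPM in KO, adjusted p = 0.0818) and Slc7a14 (34.2 and 46.8 CPM in WT, 94.0 and 67.6 CPM in KO, adjusted p = 0.0976) came closest. The makeup of this class differed between genotypes: cells with 5% to 10% insulin numbered 12 and 7 in WT and 73 and 23 in KO, and beta markers other than insulin summed to 2744 to 4103 CPM in WT and 11484 to 21079 CPM in KO, a part that was not tested. With beta cells defined by at least 20% insulin, KO cells of lower insulin moved into this class. The number called over all genes then went from 92 to 2442, and of the members 9 were called higher and 1 lower. Without WT replicate 2 the number called was 1 and without KO replicate 2 it was 2.

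Within the other cells, groups with the markers of a known type shared some leading carriers and differed in others. These groups held 124, 142, 126 and 138 cells with endothelial markers in WT 1, WT 2, KO 1 and KO 2, 126, 114, 81 and 57 with macrophage markers, 45, 41, 62 and 45 with mesenchymal markers, 23, 20, 26 and 20 with Schwann cell markers and 141, 229, 225 and 115 with Ppy, the hormone of PP cells, at 3% of UMIs or more. Genotypes were not tested within them. Cells with endothelial markers were led by Slc38a2, at 607, 645, 642 and 772 CPM in WT 1, WT 2, KO 1 and KO 2. Slc3a2 was read at 476, 418, 355 and 414 CPM and Slc6a6 at 412, 387, 598 and 763 CPM, so that Slc3a2 was second in WT and Slc6a6 in KO. Slc43a3 was read there at 149 to 256 CPM. The KO values of Slc6a6 lay above the WT values and those of Slc38a2 overlapped them, which was neither tested nor counted over all genes.

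Macrophage-marked cells had Slc3a2 first (439 to 516 CPM over the 4 libraries) and Slc6a6 second (294 to 352 CPM). They also had Slc7a11 at 146 to 191 CPM, Slc43a2 at 130 to 177 CPM and Slc7a8 at 126 to 178 CPM. Their Slc38a2 stood at 32.2 to 44.5 CPM, below every other group named here. Slc7a7, rare in endocrine cells, was read at 59.9 to 83.8 CPM. Cells with Schwann markers had Slc3a2 at 452 to 623 CPM, Slc38a2 at 164 to 244 CPM, Slc6a8 at 113 to 181 CPM and Slc7a1 at 125 to 174 CPM. Cells with mesenchymal markers had Slc3a2 first at 230 to 271 CPM, Slc38a2 at 134 to 234 CPM and Slc1a5 at 96.4 to 135 CPM. Cells with Ppy had Slc6a6 first, at 253 to 271 CPM, with Slc38a4 at 17.9 to 24.4 CPM and Slc3a2 at 119 to 193 CPM.

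**Figure D5:**
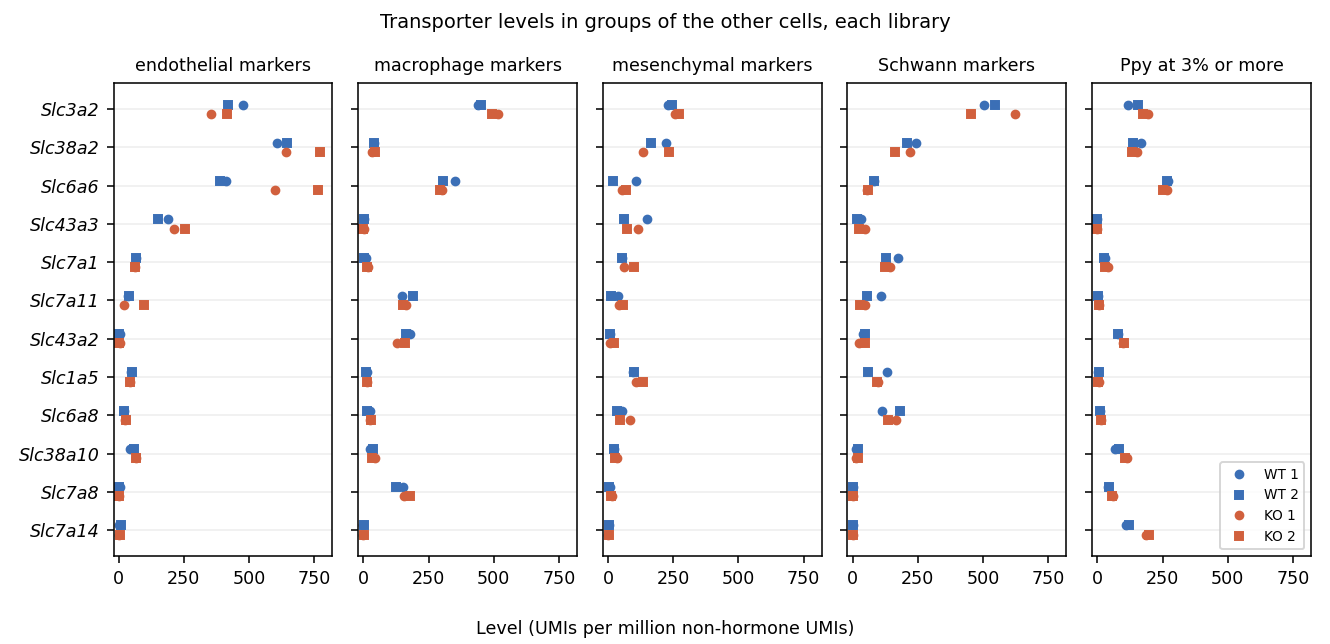
Level (horizontal axis, CPM of non-hormone UMIs) of leading members in groups of the other cells set by their markers or by Ppy, each point 1 library, WT blue and KO orange. Slc38a2 and Slc6a6 are highest in endothelial-marked cells, Slc7a11, Slc43a2 and Slc7a8 in macrophage-marked cells and Slc6a8 in Schwann-marked cells.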

How the data were processed

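Per the submitters' processing notes, Cell Ranger 3.0.0, Seurat 2.3.4 and the mouse build mm10 were used, with no role given. The authors deposited 1 table of raw UMI counts per gene and cell for each of the 4 libraries (2 WT, 2 KO), with cells already filtered. Gene identifiers and positions are from the GENCODE annotation of GRCm38, and promoter windows from RefSeq (GRCm38.p6).

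Doublets were removed with a caller written here that scores simulated doublets of each library, at 0.8% per 1000 cells (283, 273, 150 and 49 cells in WT 1, WT 2, KO 1 and KO 2). The remaining cells were sorted into beta, alpha, delta and other cells by hormone share, and counts were summed per class and library. In beta cells these sums held 165584111, 178027185, 109795690 and 72623715 UMIs. Genotypes were compared with edgeR 4.0.16 (R 4.3.3), with TMM scaling, its filter on low counts and the quasi-likelihood test, adjusted by Benjamini-Hochberg over all genes tested; intervals and tests cover counting error and the spread of 2 libraries per group. DESeq2 1.42.0 and limma-voom (limma 3.58.1) were alternatives, with other scalings, filters, cell limits, each library left out, and replicate number as a block. Same-numbered libraries did not deviate together (correlations -0.002 in beta, -0.034 in alpha and 0.063 in delta cells), so the numbers were not taken as pairs. The edgeR steps were tested on simulated data.

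The members, the related gene lists and the rule for named genes were chosen with earlier results of these data known. Named with every library's value were the up to 15 called members each way in beta cells and 6 in other classes with at least 5 CPM, the 5 highest in each class, the members called for a class difference and 1 defining gene of each family; Tmem27, Slc15a2, Sfxn1 and the members below 5 CPM were named after their values were seen. One gene of the related lists was tested and counted but is not reported here. A cell of the other class joined a marker group where at least 3 markers and 10 marker UMIs were detected, at least 2 times those of the next list.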

Additional observations from a re-analysis of the deposited data

Results flagged for a closer look

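The genotype effect differed between classes for 13 members, by edgeR's interaction term. Between beta and alpha cells 31.4% of members and 25.9% of all genes differed. Between beta and delta cells 19.5% of members differed, close to the 18.4% of all genes. As beta minus alpha cells, the log2 difference of the effects was -1.27 for Slc38a4, -1.01 for Slc6a17, -0.64 for Slc7a8 and -0.49 for Slc7a2. It was 0.42 for Slc7a1, 0.45 for Slc7a4, 0.72 for Slc38a10, 1.49 for Slc38a5 and 1.55 for Slc1a4, and 3.27 and 5.09 for the rare Slc38a11 and Slc6a15. With library size only the differences of Slc7a2 and Slc7a8 turned sign.

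As beta minus delta cells, the difference was -1.17 for Slc38a4, -0.90 for Slc6a17 and -0.79 for Slc7a8. It was 0.95 for Slc7a5, 1.07 for Slc38a10, 1.76 for Slc7a3, 1.96 for Slc38a5 and 3.92 for Slc38a11. Slc6a15 and Slc7a3 had too few UMIs to be tested within alpha or delta cells, and Slc38a11 had too few within alpha cells. The genotype effect on them was not measured in those classes, and the sizes of these differences are loose. With library size only Slc38a4, Slc6a17 and Slc7a8 were not called against delta cells, nor Slc6a17 against alpha cells.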

How the results depend on the processing

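In beta cells 34 were called with library size only and 34 with sums scaled by cell number, and 13 to 24 when a library was left out. In alpha cells the counts were 14 with library size only, 25 by cell number, 4 with DESeq2 and 2 to 5 without a library, and in delta cells 21 by cell number and 0 to 2 without a library. In other cells they were 4 with library size only, 29 by cell number, 1 with DESeq2, 3 without the filter, 10 with a 20% insulin limit and 0 to 2 without a library. The beta minus alpha difference gave 27 with library size only, 7 with DESeq2 and 8 to 13 without a library, and beta minus delta 20 with library size only and 7 to 8 without a library. The related lists gave 89 with library size only, 86 by cell number and 36 to 57 without a library. Beta against alpha cells in WT gave 25 to 29 and beta against delta cells 24 to 29 without a library. The number called over all genes moved too. With library size only it went from 6197 to 12916 in beta cells, from 1853 to 3435 in alpha cells and from 92 to 1222 in other cells. By cell number it was 12929 in beta, 11165 in alpha, 8785 in delta and 10553 in other cells. The cause of these changes was not tested beyond the shift of the median gene, 0.92 and 0.93 in beta cells.

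With library size only and by cell number, beta cell changes turned sign for Slc1a4 (0.86 and 0.87), Slc3a2 (0.65 and 0.66), Slc6a9 (0.46 and 0.47), Slc7a2 (0.47 and 0.48), Slc7a8 (0.37 and 0.39) and Slc38a2 (0.61 and 0.63), as did those of 5 other members that were not called, Slc6a17, Slc3a1, Slc6a19, Slc6a19os and Slc38a6. By cell number Slc3a2 and Slc38a2 turned in alpha cells (0.52 and 0.53) and Slc3a2 in delta cells (0.27). With library size only the beta minus alpha differences of Slc7a2 and Slc7a8 turned to 0.21 and 0.055.

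The fit with a replicate block called 25 members in beta cells, 8 in alpha, 3 in delta and 0 in other cells, and Slc7a5 in beta cells (log2 0.70, adjusted p = 0.00631). In other cells same-numbered libraries deviated apart (correlation -0.137), and a crossed replicate block, chosen after seeing the data, called 3. With 2 libraries per group, members under 5 CPM rest on few UMIs.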
